A study of Mus musculus and Rattus norvegicus with 28 samples.

Results

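Oxygen sensing around birth was followed through 10 genes of the hypoxia-inducible factor (HIF) pathway, Hif1a, Epas1, Egln1, Egln3, Vegfa, Adm, Bnip3, Ndrg1, Ankrd37 and Pdk1. They were chosen as a list by gene symbol and are 10 of the 55450 genes in the mouse RNA-seq files and 10 of the 32623 in the rat files. The mouse libraries came from left-ventricle cardiomyocytes of wild-type C57BL/6 mice of both sexes at embryonic day 18.5 (E18.5) and at postnatal days 1, 3 and 7 (P1, P3 and P7), with 2 RNA-seq and 2 ATAC-seq libraries at each time point. ATAC-seq marks open chromatin through the insertion sites of a transposase. The rat libraries came from plated left-ventricle cardiomyocytes of P1 Sprague Dawley rats of both sexes, exposed one day after plating either to 100 nM trichostatin A (TSA), which inhibits histone deacetylases, or to its solvent DMSO as control, with 3 RNA-seq libraries per group. No animal carried an engineered allele. All cells were released by many hours in trypsin in the cold and then by warm collagenase. They were then kept for a time in medium in an incubator, and cells that attached to uncoated dishes were discarded. Mouse cells were used directly after these steps, so their values are those of cells some hours outside the animal. The part of these steps in the levels of oxygen-regulated genes was not tested. The libraries of a group are stated to be biological replicates, and the number of animals behind each one is not given in the sources used here.

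HIF is a transcription factor made of an oxygen-regulated alpha subunit (Hif1a or Epas1, which encodes HIF-2 alpha) and a stable partner, Arnt. In oxygenated cells the prolyl hydroxylases Egln1 and Egln3 modify the alpha subunit, which is then bound by Vhl and degraded, so that much of the regulation of Hif1a acts on the protein and is not seen in its mRNA. When oxygen falls, HIF binds hypoxia response elements and switches on genes for blood vessel growth (Vegfa), vessel tone (Adm, which encodes adrenomedullin), removal of mitochondria (Bnip3) and a block of pyruvate entry into mitochondria (Pdk1). Ndrg1 and Ankrd37 are widely used hypoxia-response genes, and Egln3 is itself induced by HIF. At birth the heart passes from the low oxygen of the fetus to air breathing and from glucose towards fatty acids as fuel.

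The marker genes of cell types changed across the mouse series, and these values bear on every comparison over time. Expression is given as FPKM, reads scaled to transcript length and to the aligned reads of the library, summed over the transcripts of a gene. The summed level of 10 cardiomyocyte markers was 25220 and 32400 FPKM at E18.5, then 11970 and 19600 (P1), 8100 and 7054 (P3) and 1970 and 831 (P7), where Ttn was the lowest (0.626 and 0.310). The 8 fibroblast markers summed to 442 and 433 FPKM at E18.5 and to 2907 and 3628 at P7. The 7 measured erythroid markers summed to 29050 and 35400 FPKM at E18.5 and to between 4.71 and 41.1 in the postnatal libraries. Endothelial markers stayed between 233 and 532, smooth muscle and pericyte markers went from 413 and 535 at E18.5 to 1655 and 1861 at P7, and macrophage markers ranged from 44.7 to 186. The label of the P7 libraries as cardiomyocytes is thus not matched by the RNA levels of their defining markers. The paper gives other evidence for the label. It reports high purity from staining of cardiac troponin T protein, P7 included, and Pecam1 and Dcn promoters that were not accessible in its ATAC-seq data. In such bulk libraries, fewer cells of a type and less RNA per cell cannot be told apart, and the part of cell makeup in the changes described here was not tested.

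In mouse the 10 genes followed several courses. Adm, Hif1a and Epas1 were highest at P7. Vegfa, Bnip3, Ndrg1 and Ankrd37 were high at E18.5, low at P3 and near or above their fetal level again at P7. Pdk1 went down after E18.5 and stayed low, while Egln3 was high at P7 alone and Egln1 differed least between time points.

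**Figure D1:**
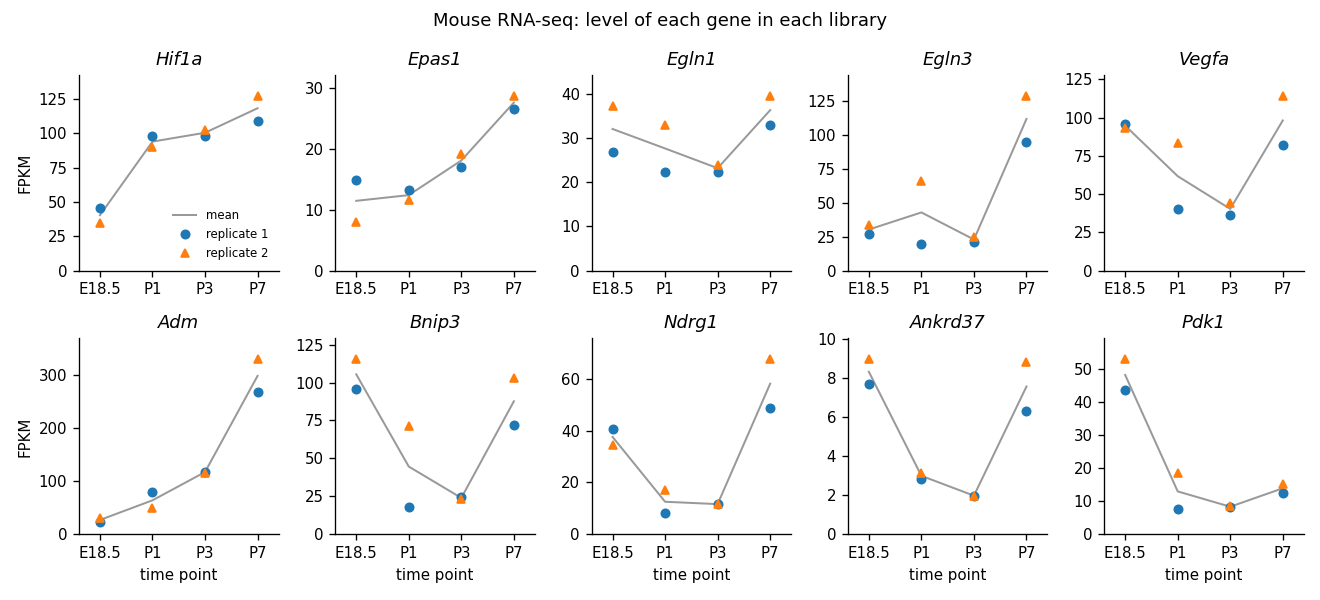
FPKM of each of the 10 genes (y axis, from 0) by mouse time point, from E18.5 to P7 (x axis), with replicate 1 as circles, replicate 2 as triangles and the mean of both as a grey line. Adm reached 268 and 330 FPKM at P7, Bnip3 had its 2 P3 libraries at 24.4 and 23.5, and the P1 libraries of Egln3, Bnip3 and Vegfa lay far apart.

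Each change was tested with limma on log2(FPKM + 1) over the 13979 mouse genes with at least 1 FPKM in at least 2 libraries. All 10 genes passed that filter, in rat too. A gene is called when its p value, adjusted by Benjamini-Hochberg over all tested genes, is under 0.05 and its log2 fold change (the difference in mean log2(FPKM + 1), which understates changes of low genes) is above 1 in size. Gene positions are those of the mm10 build. The 3 comparisons with E18.5 share their control libraries, so their values are given side by side and are not independent. The median log2 fold change of all tested genes was 0.15 for P1, 0.16 for P3 and 0.15 for P7, and with TPM in place of FPKM it was 0.38, 0.41 and 0.40. At P1, 1411 genes were called higher and 847 lower on FPKM, 2568 and 752 on TPM, and 1012 and 1201 after scaling by median-of-ratios size factors.

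At P1, 2 of the 10 genes were called higher than at E18.5 (Hif1a and Adm) and 4 lower (Pdk1, Ndrg1, Bnip3 and Ankrd37), where 10.1% of all tested genes were called higher and 6.06% lower. At P3 the same comparison called 2 higher (Hif1a and Adm) and 5 lower, the 4 of P1 and Vegfa, beside 13% higher and 8.88% lower among all genes. By P7, 4 were called higher (Adm, Egln3, Hif1a and Epas1) and 1 lower (Pdk1), beside 15.4% higher and 12.3% lower. The 10 genes had a median log2 fold change of −0.46 (P1), −0.83 (P3) and 0.39 (P7). P7 was also set against the earlier postnatal libraries, which avoids the E18.5 libraries with their erythroid RNA. Against P1, 5 genes were called higher (Adm, Ndrg1, Egln3, Epas1 and Ankrd37) and none lower, beside 3.45% higher and 5.46% lower. Against P3, a comparison added after the values had been seen, 4 were called higher (Egln3, Ndrg1, Ankrd37 and Adm) and none lower, beside 1.35% higher and 2.2% lower. Epas1 and Egln3 lost their calls against P1 when either P7 library was left out, and Ankrd37 without P7 replicate 2. Over all tested genes, more were called against P1 without P7 replicate 1 and fewer without replicate 2. Against P3 all calls of the 10 genes were lost without P3 replicate 1, P3 replicate 2 or P7 replicate 2. Most calls over all tested genes were lost there too, and such fits leave 1 library in a group. With 1 library left out, the log2 fold changes of the 4 genes stayed between 1.18 and 2.45.

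**Figure D2:**
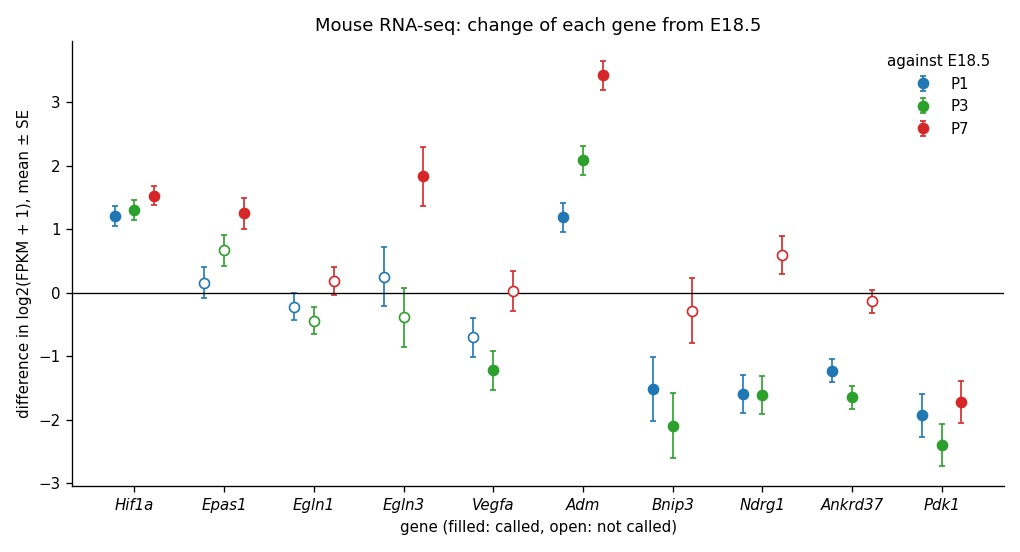
Change of each gene (x axis) from E18.5 to P1 (blue), P3 (green) and P7 (red) as the difference in mean log2(FPKM + 1) (y axis), with bars of 1 standard error from limma and filled points for called changes. Hif1a and Adm lie above 0 at all 3 time points, and Bnip3, Ndrg1 and Ankrd37 lie below −1 at P1 and P3 and between −0.28 and 0.60 at P7.

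Among the factors, Hif1a (ENSMUSG00000021109.13, chr12:73901375-73947530, plus strand), the widely expressed alpha subunit, measured 45.8 and 35.1 FPKM at E18.5, then 98.2 and 90.0 (P1), 98.3 and 102.8 (P3) and 109 and 128 (P7). Every postnatal library lay above both fetal ones, and the rise was already 1.21 ± 0.15 (log2 fold change ± SE, limma adjusted p = 0.00074) at P1. It was 1.54 ± 0.15 (adjusted p = 0.000101) at P7, and the difference between P7 and P1 was not called (0.33 ± 0.15, adjusted p = 0.195). Epas1 (ENSMUSG00000024140.10, chr17:86753700-86833410, plus strand), the alpha subunit best known from endothelial cells, measured 14.9 and 8.03 FPKM at E18.5, then 13.3 and 11.6 (P1), 17.0 and 19.3 (P3) and 26.5 and 28.8 (P7). Its 2 E18.5 libraries differed by about as much as the means of E18.5 and P3, and of the 3 comparisons with E18.5 only P7 was called (1.26 ± 0.25, adjusted p = 0.00305). Without E18.5 replicate 2 the P7 difference was 0.85 and not called, and without E18.5 replicate 1 the P3 difference was 1.08 and called (adjusted p = 0.0029). In every library Hif1a was the higher of the pair. Most Hif1a RNA was assigned to the transcript Hif1a-201, with 67.7% to 76.1% of the gene's FPKM, and Hif1a-202 took 17.8% to 25.4%. The gene Gm49321 starts 17 bp from Hif1a and was at most 0.179 FPKM, and the antisense gene Gm15283 was at most 0.679 FPKM.

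The hydroxylases are given side by side. Egln1 (ENSMUSG00000031987.6, chr8:124908587-124949324, minus strand), the main oxygen sensor of most tissues, measured 26.9 and 37.2 FPKM at E18.5, then 22.3 and 32.9 (P1), 22.3 and 24.0 (P3) and 33.0 and 39.5 (P7). It was called in no comparison, and its P7 value exceeded P3 by 0.62 ± 0.22 with an adjusted p of 0.169. Egln3 (ENSMUSG00000035105.5, chr12:54178981-54203860, minus strand) measured 27.2 and 33.4 FPKM at E18.5, then 19.4 and 66.4 (P1), 21.0 and 24.9 (P3) and 94.8 and 129 (P7). Both P7 libraries stood above all others, at 1.84 ± 0.46 over E18.5 (adjusted p = 0.0104) and 2.23 ± 0.46 over P3 (adjusted p = 0.0354). Of 16 alternative settings, 3 lost the call over E18.5 and 7 the call over P3. Its rise over P1 was close to the threshold (1.59 ± 0.46, adjusted p = 0.0498) and was 0.73 and not called without P1 replicate 1. Egln1 and Egln3 each have 1 annotated transcript, so no other isoform enters their values.

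Of the secreted members, Adm (ENSMUSG00000030790.15, chr7:110627661-110629820, plus strand), a vasodilator peptide, changed most. It measured 23.5 and 30.4 FPKM at E18.5, then 79.1 and 49.0 (P1), 118 and 116 (P3) and 268 and 330 (P7). No 2 time points overlapped, and the mean went from 26.9 ± 4.86 FPKM (SD, n = 2) to 299 ± 43.9 (SD, n = 2), a ratio of 11.1. The log2 fold change reached 1.19 ± 0.23 by P1 (adjusted p = 0.00475), 2.09 ± 0.23 by P3 (adjusted p = 0.000268) and 3.43 ± 0.23 by P7 (adjusted p = 2.16e-05). Without P1 replicate 1 the P1 difference was 0.85 and no longer called. Vegfa (ENSMUSG00000023951.17, chr17:46016993-46032369, minus strand), the main growth factor for endothelial cells, measured 95.9 and 93.5 FPKM at E18.5, then 40.1 and 83.2 (P1), 36.4 and 44.2 (P3) and 82.0 and 114 (P7). Its fall to P3 was called (−1.22 ± 0.31, adjusted p = 0.0124), and P7 had no detectable difference from E18.5 (0.03, 95% interval −0.68 to 0.74). The difference from P3 to P7 was 1.25 ± 0.31 with an adjusted p of 0.0599. Vegfa-201 took 39.2% to 64.5% of the gene's FPKM and Vegfa-202 13.5% to 30.1%.

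Bnip3, Ndrg1 and Ankrd37 shared the trough. Bnip3 (ENSMUSG00000078566.8, chr7:138890836-138909519, minus strand), a receptor for the removal of mitochondria, measured 95.6 and 115 FPKM at E18.5, then 18.1 and 71.1 (P1), 24.4 and 23.5 (P3) and 72.3 and 103.0 (P7). The 2 P3 libraries and P1 replicate 1 were far below the fetal ones, while P1 replicate 2 lay near the P7 range. Its fall was −1.51 ± 0.51 at P1 (adjusted p = 0.0443) and −2.09 ± 0.51 at P3 (adjusted p = 0.0103). The call at P1 was lost in 10 of 16 alternative settings, and the return from P3 to P7 missed the threshold (1.81 ± 0.51, adjusted p = 0.0896) but was called when either P1 library was left out (adjusted p = 0.00716 and 0.00745) and in the fit of P3 and P7 alone (0.0298). Ndrg1 (ENSMUSG00000005125.13, chr15:66929318-66969640, minus strand) measured 40.6 and 34.6 FPKM at E18.5, then 8.05 and 17.1 (P1), 11.8 and 11.5 (P3) and 48.8 and 67.5 (P7). All 4 libraries of P1 and P3 lay below all others, with a fall of −1.61 ± 0.30 at P3 (adjusted p = 0.00316) and a rise of 2.21 ± 0.30 from P3 to P7 (adjusted p = 0.0109). Ankrd37 (ENSMUSG00000050914.16, chr8:45996902-46005707, minus strand), a small ankyrin-repeat protein, had the lowest mean of the 10 genes at each time point, with 7.68 and 8.94 FPKM at E18.5, then 2.82 and 3.15 (P1), 1.97 and 1.98 (P3) and 6.32 and 8.80 (P7). Its fall to P3 (−1.64 ± 0.18, adjusted p = 0.000303) and its rise to P7 (1.51 ± 0.18, adjusted p = 0.00987) were nearly equal in size. Ankrd37 overlaps Ufsp2 on the other strand, which was at 10.5 to 36.97 FPKM, and since the library kit does not mark strand, reads in the overlap cannot be told apart.

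Pdk1 (ENSMUSG00000006494.11, chr2:71873224-71903858, plus strand), which phosphorylates and shuts down pyruvate dehydrogenase, measured 43.5 and 52.9 FPKM at E18.5, then 7.53 and 18.4 (P1), 8.12 and 8.56 (P3) and 12.6 and 15.3 (P7). No postnatal library reached a fetal one, with a fall of −1.93 ± 0.33 at P1 (adjusted p = 0.00296), −2.39 ± 0.33 at P3 (adjusted p = 0.00079) and −1.72 ± 0.33 at P7 (adjusted p = 0.00288). From P3 to P7 the difference was 0.67 ± 0.33 and not called (adjusted p = 0.344).

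The genes around these members were read from lists of known roles. Of 15 HIF partners and regulators, 1 was called higher and 2 lower at each postnatal time point, beside 10.1% to 15.4% of all tested genes called higher and 6.06% to 12.3% called lower. Arnt2, an alternative partner subunit, rose from 0.698 and 0.643 FPKM at E18.5 to 5.51 and 4.38 at P1, by 1.83 on the log2 scale (adjusted p = 0.000373). Hif3a, a HIF alpha subunit that can oppose the other two, fell from 3.23 and 3.75 FPKM to at most 0.133 in every postnatal library (−2.01 at P1, adjusted p = 8.87e-05), and Siah2, a ubiquitin ligase for the hydroxylases, fell from 18.0 and 23.8 to between 4.61 and 7.26 (−1.78 at P1, adjusted p = 0.000245). The list had a median of −0.04 (P1), −0.05 (P3) and −0.04 (P7). Arnt, the standard partner, was at 6.59 to 11.5 FPKM and Egln2 at 30.4 to 38.2, and neither was called.

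Of 35 other HIF targets, 34 were tested. At P1 the list had a median log2 fold change of −0.35. There, 3 were called higher (Lox and P4ha1 among them) and 3 lower (Stc2, Tpi1 and Vldlr), beside 10.1% and 6.06% of all tested genes. That balance moved with the scaling, to 6 higher and 1 lower on TPM and 2 higher and 6 lower after median-of-ratios scaling, and with the library left out, to 5 higher and 0 lower without P1 replicate 1 and 2 higher and 8 lower without P1 replicate 2. At P3, 4 were higher (Lox, P4ha1 and P4ha2 among them) and 5 lower (Stc2, Vldlr, Fam162a, Tpi1 and Aldoa), with a median of −0.24. Beside them, 13% of all tested genes were called higher and 8.88% lower. At P7, 11 were higher and 1 lower (Aldoa), beside 15.4% and 12.3% of all tested genes. The median was 0.38, beside 0.15 over all genes. The rises at P7 included those of Lox (4.52), which encodes an enzyme that crosslinks collagen, Ero1l (2.48), P4ha1 (2.45), P4ha2 (2.30) and Plod2 (2.25), of which the last 4 act in oxidative folding and in the hydroxylation of collagen. Fibroblast markers rose along with this list (8 of 8 called higher at P7), and the part of cell makeup in it was not tested. From P1 to P7, 12 of the 34 were called higher and none lower, beside 3.45% and 5.46% of all tested genes. They were led by Ndufa4l2 (3.34), Ddit4 (2.23), Ero1l (2.18), Lox (1.76) and Cox4i2 (1.72). The count was 7 with no filter on low values, beside 372 of 31008 genes called higher. Fewer of the list, and fewer of all tested genes, were called higher without P7 replicate 2. Ndufa4l2, a mitochondrial protein induced by hypoxia, was at 12.7 and 17.6 FPKM at E18.5, then 0.326 and 9.26 (P1), 2.69 and 3.92 (P3) and 29.2 and 45.4 (P7), lowest in P1 replicate 1 and both P3 libraries. From P3 to P7, 8 of 34 were higher and none lower, beside 1.35% and 2.2% of all tested genes. The largest rises were those of Ero1l (2.28), Ddit4 (1.76), Pfkfb3 (1.48), Plod2 (1.46), Slc2a1 (1.39) and Lox (1.34). Without P3 replicate 1, P3 replicate 2 or P7 replicate 2, most of these calls were lost, as were most of those over all tested genes. The median of the list in these fits was 0.68, 0.64 and 0.55, beside 0.71 with all libraries. With no filter on low values none of 35 was called, beside 15 of 31008 genes.

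The receptors of the secreted members were read next. Of 8 receptor genes none was called higher at any time point, beside 10.1% to 15.4% of all tested genes called higher against E18.5. Kdr, the main VEGF receptor of endothelial cells and also one of the endothelial markers, fell from 28.0 and 13.1 FPKM at E18.5 to 4.08 and 3.43 at P7 (−2.09, adjusted p = 0.00082), whereas Flt1 was at 8.12 to 16.7 and not called. Calcrl, the receptor of adrenomedullin, was at 3.395 to 8.12 FPKM. Of its partner proteins, Ramp3 fell from 9.95 and 6.39 FPKM to between 0.389 and 1.195 after birth (−2.33 at P7, adjusted p = 0.0001735) and Ramp1 from 19.7 and 27.3 to 2.23 and 1.05 at P7 (−3.23, adjusted p = 0.000197), while Ramp2 stayed at 24.7 to 36.95 and was not called. Of 9 other genes of pyruvate dehydrogenase and its control, 2 were called lower by P1, 3 by P3 and 7 by P7, with none higher, beside 6.06%, 8.88% and 12.3% of all tested genes called lower. Pdk4, the kinase tied to fatty acid use, fell from 58.1 and 54.7 FPKM at E18.5 to 5.81 and 4.72 at P7 (−3.20, adjusted p = 8.14e-05), Pdk2 from 51.6 and 73.0 to 7.83 and 4.20 (−3.20, adjusted p = 8.7e-05), and Pdk3 stayed at 22.6 to 32.5 and was not called. Pdhb (−2.73), Dlat (−1.61) and Pdha1 (−1.57), subunits of the complex, and the phosphatase Pdp1 (−1.42) were also called lower by P7. Ndrg2 and Ndrg4, paralogs of Ndrg1, fell to P7 (−2.15 and −2.69) and Ndrg3, at 8.67 to 20.0 FPKM, was not called.

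Across the 8 mouse libraries, correlations of log2(FPKM + 1) describe which genes moved alike, with only 4 time points behind them. Vegfa and Bnip3 had a Pearson r of 0.972, Vegfa and Ndrg1 0.9, Ndrg1 and Ankrd37 0.911, and Egln1 and Vegfa 0.893. Hif1a had an r of −0.872 with Pdk1, −0.461 with Bnip3 and 0.856 with Adm. Of all tested genes, the nearest to Vegfa were Tmem120b (0.985), Bnip3 (0.972) and Rnf122 (0.970), and 17 genes exceeded 0.9. The nearest to Egln3 were Slc16a3 (0.961), a lactate exporter, Slc2a3 (0.940), a glucose transporter, and 2610002M06Rik (0.937), and 15 genes exceeded 0.9. Hif1a was nearest to Slco3a1 (0.997), Cald1 (0.997) and Nadk (0.996), but 2562 genes exceeded 0.9 with it. Epas1 was nearest to Tcaf2 (0.989), S1pr3 (0.984) and Jak1 (0.984), and 271 genes exceeded 0.9.

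The 2 libraries of P1 stood apart from each other for these genes. On the scale of FPKM + 1, P1 replicate 2 was at least 2-fold above replicate 1 for 4 of 10 members (Bnip3 3.77, Egln3 3.30, Pdk1 2.28 and Vegfa 2.05), beside 2 of 34 other HIF targets and 1.3% of all tested genes. The opposite held for none of the 10, and Adm was the lowest at 0.624. Cardiomyocyte markers were also higher in replicate 2 (19600 against 11970 FPKM), and their part in the result was not tested. Without P1 replicate 2, Vegfa joined the genes called lower at P1 (−1.22, adjusted p = 0.00666) and Egln3 was at −0.61. Without P1 replicate 1, Egln3 was called higher (1.11, adjusted p = 0.0137) and Bnip3 was at −0.56 and not called. Hif1a, Ndrg1, Ankrd37 and Pdk1 were called at P1 either way.

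**Figure D3:**
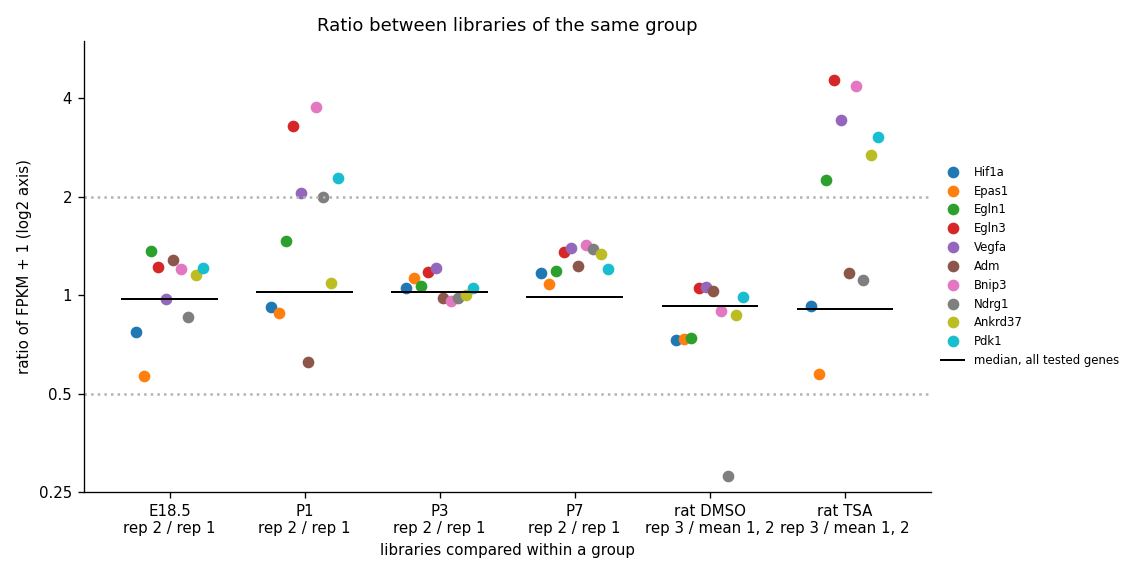
Ratio of FPKM + 1 between libraries of the same group (y axis, log2 scale) for each of the 10 genes (coloured points), with the median over all tested genes as a black line and dotted lines at ratios of 2 and 0.5. P1 replicate 2 and rat TSA replicate 3 are the libraries in which several of the genes exceed 2, and Ndrg1 in DMSO replicate 3 is the only point below 0.5.

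Promoters were read in 2 ways, as sequence and as ATAC-seq peaks. HIF binds the core word ACGTG and its variant GCGTG. Both strands were searched for them, and the first word is also part of the E-box CACGTG, which other factors bind. RefSeq promoter windows (GRCm38.p6) of 300 bases, 250 before and 50 after the start, were found for 8 of the 10 genes, and those for Epas1 and Ndrg1 were not used here. Of their 10 windows, 8 held 1 of the words or more, beside 43.8% of 32851 promoter windows (19.6% with ACGTG, 32.4% with GCGTG and 7.15% with the E-box). Vegfa's first window and the second one of Pdk1 held none. The second window of Vegfa held both words but was overlapped by no peak in any library. Both words contain CG, and the 10 windows had a GC content of 40.3% to 86%. The share over all windows was not matched for GC content. The windows of 5 genes are printed because they cover the courses above (Adm rising, Egln3 high at P7, Bnip3 and Ankrd37 with the trough, Pdk1 staying low), 5′ to 3′ in the sense of the gene, with the words found in capitals.
Adm: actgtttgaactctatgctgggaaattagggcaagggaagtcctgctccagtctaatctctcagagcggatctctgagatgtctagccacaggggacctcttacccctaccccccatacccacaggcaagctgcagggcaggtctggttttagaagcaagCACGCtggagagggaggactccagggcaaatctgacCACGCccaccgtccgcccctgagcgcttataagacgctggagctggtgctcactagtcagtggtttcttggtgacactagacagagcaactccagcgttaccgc
Egln3: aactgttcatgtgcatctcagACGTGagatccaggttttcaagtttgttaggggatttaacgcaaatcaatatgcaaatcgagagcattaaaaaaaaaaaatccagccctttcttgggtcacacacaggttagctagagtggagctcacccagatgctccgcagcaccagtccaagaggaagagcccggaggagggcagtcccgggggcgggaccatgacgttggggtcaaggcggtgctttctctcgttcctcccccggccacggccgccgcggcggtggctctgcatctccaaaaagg
Bnip3: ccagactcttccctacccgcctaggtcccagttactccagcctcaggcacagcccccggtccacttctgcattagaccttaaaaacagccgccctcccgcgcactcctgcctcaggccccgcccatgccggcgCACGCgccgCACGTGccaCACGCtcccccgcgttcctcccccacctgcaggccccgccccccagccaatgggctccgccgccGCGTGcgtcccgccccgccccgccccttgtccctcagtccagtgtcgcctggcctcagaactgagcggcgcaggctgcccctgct
Ankrd37: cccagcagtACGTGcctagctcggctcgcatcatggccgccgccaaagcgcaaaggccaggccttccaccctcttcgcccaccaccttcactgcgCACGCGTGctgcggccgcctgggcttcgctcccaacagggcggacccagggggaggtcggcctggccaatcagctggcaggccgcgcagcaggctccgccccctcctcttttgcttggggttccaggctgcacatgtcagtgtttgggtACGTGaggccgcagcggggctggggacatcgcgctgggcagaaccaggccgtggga
Pdk1: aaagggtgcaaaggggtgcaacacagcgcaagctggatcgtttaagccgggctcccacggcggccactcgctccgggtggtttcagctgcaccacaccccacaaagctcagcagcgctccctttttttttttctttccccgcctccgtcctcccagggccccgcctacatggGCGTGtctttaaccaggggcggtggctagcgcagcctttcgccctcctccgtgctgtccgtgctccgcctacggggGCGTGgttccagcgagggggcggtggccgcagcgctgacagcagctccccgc

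The window of Adm is chr7:110627407-110627706 on the plus strand and holds 2 GCGTG words, both on the other strand and upstream of the start. That of Egln3 is chr12:54203825-54204124 on the minus strand, with 1 ACGTG near its far end. Bnip3 (chr7:138909457-138909756, minus strand) holds the most, with 2 ACGTG and 3 GCGTG words, where the ACGTG pair is 1 E-box read on both strands. Ankrd37 (chr8:45999801-46000100, minus strand) holds 2 of each word, where the GCGTG pair is 1 stretch, CACGCGTG, read on both strands. The first window of Pdk1 (chr2:71872974-71873273, plus strand) holds 2 GCGTG words. A match to such short words is a description of sequence and not a binding site.

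Peaks that reached within 2.5 kb of any annotated start of a gene were then listed for each ATAC-seq library. The authors' lists differ in length, from 13149 peaks in E18.5 replicate 1 to 95257 in P3 replicate 1, so presence is read against the share of all tested genes with such a peak. Of the 10 genes, 8 and 9 had a promoter peak at E18.5 (67.1% and 62.4% of all tested genes), 9 and 6 at P1 (69.2% and 43%), 10 and 10 at P3 (91.7% and 87.7%) and 10 and 10 at P7 (86.5% and 85.5%). In each library the share of the 10 genes lay above that of all tested genes, a difference of few genes in so short a list. Only Egln1 had a peak in both later and neither E18.5 library, a gain seen in 15.6% of tested genes at P3 and 12.1% at P7. With the 13149 top peaks of every library, P3 replicate 1 and P7 replicate 1 had 6 of the 10 genes each, beside 40.8% and 48.8%, and Egln1 kept a peak in P7 replicate 2 alone.

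**Figure D4:**
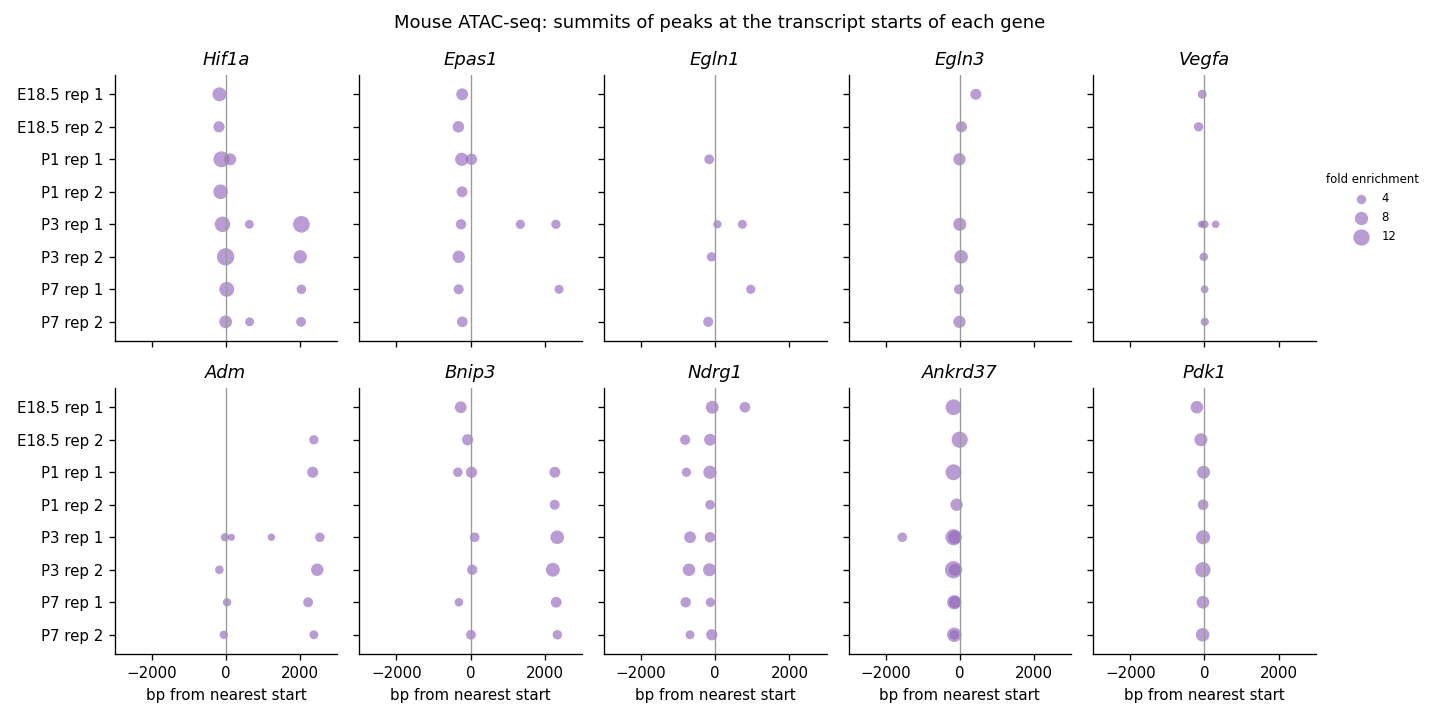
Summits of the ATAC-seq peaks that reach within 2.5 kb of a transcript start (x axis, base pairs from the nearest start, positive downstream) in each of the 8 libraries (y axis), with the area of a point proportional to its fold enrichment. Hif1a, Ankrd37 and Pdk1 have a peak at the start in every library, the start of Adm has one at P3 and P7, and Bnip3 has another about 2.3 kb downstream from P1 on. The Adm start peaks rank below the 13149 top peaks of their libraries, and the peak lists of P3 and P7 are longer than those of E18.5.

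Peaks at the start were present in all 8 libraries for Hif1a, Epas1, Ndrg1, Ankrd37 and Pdk1, whatever the course of their RNA. Ankrd37, the gene with the lowest mean RNA level, had strong ones, with a fold enrichment at its main start of 6.87 to 13.4, and at P3, where its RNA was lowest, it was 11.8 and 13.4. The protein-coding gene Lrp2bp starts 258 bp from an annotated Ankrd37 start on the other strand, and the noncoding Gm2895 lies likewise 272 bp from Ndrg1. Peaks near such paired starts cannot be assigned to 1 gene of the pair. Pdk1 had a fold enrichment of 7.01 and 7.65 at E18.5 and of 7.25 and 8.24 at P7, although its RNA was lower at P7. The printed windows of Ankrd37 and Pdk1 were overlapped by a peak in all 8 libraries. Fold enrichment depends on depth and on the background of each library, so these values were not tested between time points.

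In Adm, Egln3, Bnip3 and Vegfa the start peak was not present in every library. Adm had a peak over its printed window in both libraries at P3 and P7 and in none at E18.5 or P1, with a fold enrichment of 3.12 and 3.30 at P3 and 3.21 and 3.15 at P7. These start peaks ranked 44874 and 38163 in the P3 lists and 27683 and 24015 in the P7 lists, outside the 13149 top peaks. The E18.5 lists hold 13149 and 14910 peaks in all, so this pattern cannot be told apart from list length. A second Adm peak, with its summit 2213 to 2530 bp downstream of a start and beyond the annotated end of the gene, was stronger (up to 6.97 at P3) and was also present in E18.5 replicate 2 (3.92) and P1 replicate 1 (5.57). Egln3 had a peak over its window in 7 libraries, with none in P1 replicate 2. Its fold enrichment was 5.46 and 5.61 at E18.5, 7.75 and 8.33 at P3 and 4.40 and 6.79 at P7. Bnip3 had a start peak in 7 libraries, and its downstream peak (summits at 2216 to 2338 bp) was absent at E18.5 and present in every postnatal library. That downstream peak had a fold enrichment of 8.37 and 8.65 at P3, where the mean RNA of Bnip3 was lowest, and of 4.04 to 5.35 at P1 and P7. It ranked 17359 in P7 replicate 2, beyond the length of both E18.5 lists, and 8187 to 12633 in the other postnatal lists. The part of list length in its absence at E18.5 was not tested. Vegfa had weak start peaks, with a fold enrichment of 2.18 to 3.92 in 6 libraries and none at P1. ATAC-seq and RNA-seq replicates are separate preparations, so a library of one is not matched to a library of the other.

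In rat the question was whether TSA changed these genes. One of the TSA libraries stood apart. TSA replicate 3 was at least 2-fold above the mean of replicates 1 and 2 (on FPKM + 1) for 6 of 10 members, Egln3 (4.55), Bnip3 (4.37), Vegfa (3.43), Pdk1 (3.04), Ankrd37 (2.68) and Egln1 (2.25), beside 18 of 34 other HIF targets and 1.72% of all tested genes. Of the other targets, Hk2, the first enzyme of glycolysis, was at 69.1 FPKM in that library and at 7.67 to 11.1 in the other 5. Cardiomyocyte markers summed to 20890 FPKM in TSA replicate 3 and to 10070 to 14270 in the other 5 libraries, and fibroblast markers to 3565 against 5658 to 6930. Their part in the result was not tested. In DMSO replicate 3 none of the members was 2-fold higher and Ndrg1 was lower (11.8 against 46.6 and 42.1 FPKM).

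No member was called in either direction with all 6 libraries, beside 1.81% of the 13625 tested genes called higher and 0.316% lower, although Adm, Epas1 and Egln3 had an unadjusted p under 0.05. A fit with limma-voom on estimated reads also called none. All 3 TSA libraries lay above all 3 DMSO libraries for 6 of the 10 genes, beside 17.1% of all tested genes. No pairing of the rat libraries is stated, and same-numbered ones deviated alike to a small degree (correlations of 0.194 to 0.346). With the replicate number as a block 1 member, Epas1, was called higher. Epas1 was also the 1 member called without TSA replicate 3 and without replicate 3 of both groups, choices of which the last was made after the values had been seen.

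**Figure D5:**
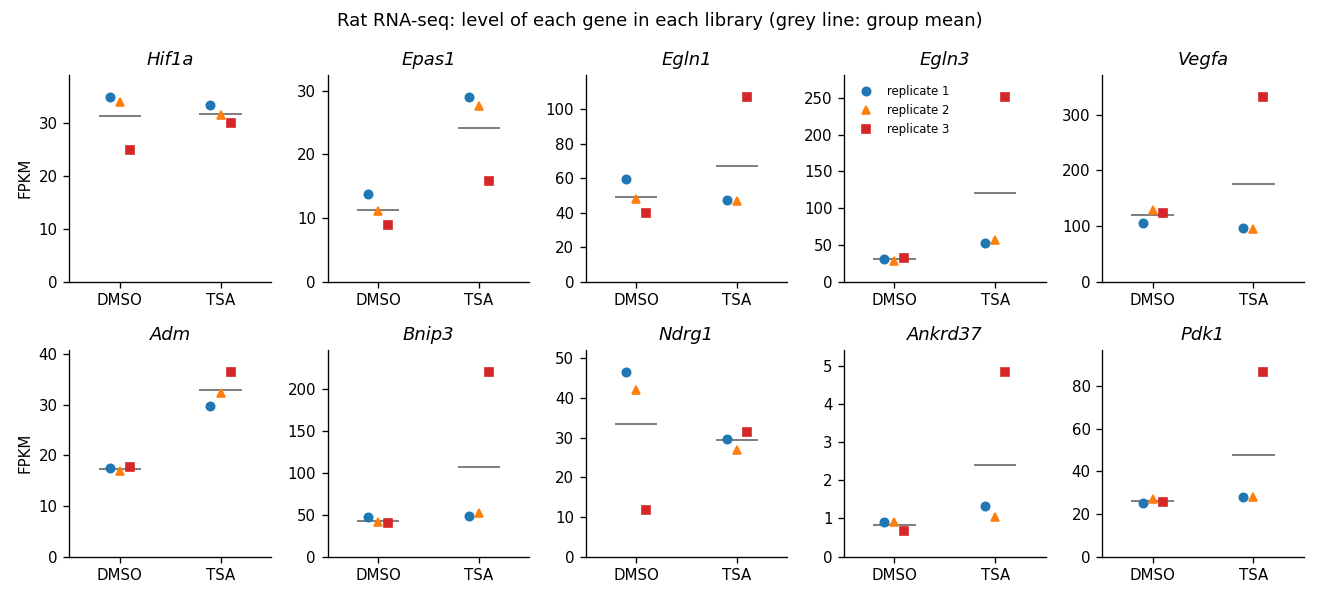
FPKM of each of the 10 genes (y axis, from 0) in the rat libraries with DMSO or TSA (x axis), with replicates 1, 2 and 3 as circles, triangles and squares and the group mean as a grey line. Adm and Epas1 have all TSA points above all DMSO points, and the red squares of TSA replicate 3 stand far above the rest for Egln3, Vegfa, Bnip3, Ankrd37, Pdk1 and Egln1.

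Adm gave the tightest groups, at 17.5, 16.9 and 17.8 FPKM with DMSO and 29.9, 32.3 and 36.5 with TSA. All TSA libraries were higher, by 0.88 ± 0.11 on the log2 scale (limma adjusted p = 0.0122), which is under the required size of 1. The value was 0.80 without TSA replicate 3 (adjusted p = 0.0231). Epas1 measured 13.8, 11.1 and 8.91 FPKM with DMSO and 29.0, 27.6 and 15.8 with TSA. Here TSA replicate 3 was the lowest of the TSA libraries, and the difference was 1.01 ± 0.26 (adjusted p = 0.0868) with all libraries, 1.01 ± 0.12 (adjusted p = 0.0275) with the replicate block and 1.27 ± 0.18 (adjusted p = 0.036) without TSA replicate 3. Egln3 measured 31.5, 28.5 and 31.6 FPKM with DMSO and 52.7, 56.1 and 251 with TSA. All TSA libraries were higher, with 1.54 ± 0.56 (adjusted p = 0.191) over all libraries and 0.81 ± 0.09 (adjusted p = 0.0245) without TSA replicate 3, again under the required size.

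The other members were called in none of these settings. Bnip3 measured 47.6, 41.4 and 39.8 FPKM with DMSO and 48.1, 51.4 and 221 with TSA, and its difference went from 0.92 ± 0.55 to 0.21 ± 0.11 without TSA replicate 3. Pdk1 measured 25.2, 26.8 and 25.7 with DMSO and 27.8, 27.9 and 86.7 with TSA, a difference of 0.63 ± 0.42 that became 0.10 ± 0.08. Ankrd37 measured 0.909, 0.908 and 0.664 with DMSO and 1.32, 1.05 and 4.86 with TSA, or 0.73 ± 0.39 and 0.26 ± 0.17. In these 3 genes the lowest TSA library still lay above the highest DMSO one, by less than the test could call. Vegfa measured 104.5, 129 and 124 FPKM with DMSO and 96.7, 95.4 and 332 with TSA, and its sign turned from 0.29 ± 0.46 to −0.30 ± 0.11 without TSA replicate 3. Egln1 measured 59.6, 47.9 and 39.7 with DMSO and 47.4, 46.5 and 107 with TSA, with overlapping groups and a difference of 0.35 ± 0.33. Hif1a measured 34.95, 34.0 and 24.9 FPKM with DMSO and 33.5, 31.6 and 30.1 with TSA, a difference of 0.03 with a 95% interval from −0.31 to 0.38. Ndrg1 measured 46.6, 42.1 and 11.8 with DMSO and 29.6, 27.0 and 31.5 with TSA, and its difference of 0.03 ± 0.48 became −0.63 ± 0.08 (adjusted p = 0.00916) without replicate 3 of both groups.

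Of the surrounding lists in rat, Hif3a was called higher with TSA (1.124, 1.52 and 0.309 FPKM against 4.99, 5.90 and 4.93, log2 fold change 1.71, adjusted p = 0.0204), 1 of 14 partners and regulators. Cox4i2, a subunit of cytochrome oxidase, was the 1 of 34 other HIF targets called (3.56, 2.46 and 3.04 FPKM against 6.35, 7.35 and 10.9, log2 fold change 1.17, adjusted p = 0.0349). The targets had no call in 5 of the 6 fits that left out 1 library, the exception being DMSO replicate 3, and the partners none without DMSO replicate 1 or any of the TSA libraries. The median of those 34 targets was 0.34 with all libraries and 0.03 without TSA replicate 3, beside 0.03 for all tested genes with all libraries. No receptor of the secreted members, no other gene of pyruvate dehydrogenase and its control and no other NDRG gene was called.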

How the data were processed

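RNA-seq (8 mouse and 6 rat libraries) and ATAC-seq (8 mouse libraries) were used, and 6 HiChIP libraries were not analysed here. The authors aligned poly-A RNA reads (150 bp, paired, a kit that does not mark strand) with HISAT2 2.1.0, to mm10 with GENCODE annotation for mouse and to rn6 with Ensembl annotation for rat, and ran StringTie (1.3.5 in the mouse and 1.3.4d in the rat file headers). The deposited files give FPKM, TPM and coverage per annotated transcript, from which aligned reads were estimated (29.3M to 37.5M per mouse and 28.2M to 38.5M per rat library). For ATAC-seq the authors trimmed with cutadapt, aligned with bowtie2, removed duplicates with Picard and called peaks per library with MACS2. The deposited peak lists give the fold enrichment (a ratio to the local background), −log10 p and q-values at the summit and a score made from q.

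FPKM was summed per gene, and log2(FPKM + 1) was fitted with limma 3.58.1 (R 4.3.3, mean-variance trend), with all 8 mouse libraries in 1 fit and the 6 rat libraries in another. Genes needed 1 FPKM in at least 2 mouse or 3 rat libraries. Tables and plots used Python 3.11.15, pandas 2.3.3 and matplotlib 3.10.9. The fits were also run on simulated data with independent normal noise and known shifts. Those data held no outlying library and no change in cell makeup, so the run says nothing on either. The p-values set a difference in means against the spread between these libraries, pooled over groups and drawn towards that of other genes. How far this spread covers variation between animals is not known. FPKM is relative to the library, so RNA of other cells lowers every other value. The number of ATAC-seq reads is not given in the sources used here.

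A promoter peak overlapped a stretch of 2.5 kb to either side of an annotated transcript start. All 10 members were named in each comparison. Of each other list, the rule was to name called genes, at most 6 in each direction by size, plus receptors and paralogs of members. A gene of these lists is not repeated at every time point, and the cell type markers are given by counts and summed levels instead of by name. One gene counted in the list of other HIF targets is not reported here by name. The members and lists were chosen with earlier results of these data known. P7 against P3, and the rat fit without replicate 3 of both groups, were added after values had been seen, and so were the examples Pdk3, Hk2, Arnt and Egln2. Same-numbered rat libraries deviated together from their group means (correlations of 0.224, 0.194 and 0.346 across genes), so the rat replicate number was also fitted as a block. The alternatives were another pseudocount, other filters, TPM, median-of-ratios scaling, limma-voom, the replicate block, fits of 2 time points, single libraries left out, and for peaks other distances, starts, q-values and list lengths.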

Additional observations from a re-analysis of the deposited data

How the results depend on the processing

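Of the settings tried on single genes, 839 values kept direction and side of the threshold, 59 lost and 15 gained a call, and 26 changed sign, none of the last being a change called with all libraries. The cause was not tested. In many of these settings the fold change was fixed in advance, so the direction could not change. They were fits without the filter, with the replicate block, of 2 time points alone, or without a library of a time point not compared. Such fits could move only the p value and the call. From E18.5 to P1, Egln1 was at 0.0175 on TPM, Epas1 was at −0.0270 with median-of-ratios scaling, and with single libraries left out Egln1 ranged from −0.485 to 0.0568 (0.0126 without E18.5 replicate 2), Epas1 from −0.251 to 0.570 and Egln3 from −0.610 to 1.11. From E18.5 to P7, Ankrd37 was at 0.106 on TPM and Vegfa at −0.152 with median-of-ratios scaling, and with single libraries left out Ankrd37 ranged from −0.344 to 0.0770, Vegfa from −0.206 to 0.268 and Egln1 from −0.0397 to 0.414. From P1 to P7, Pdk1 ranged from −0.387 without P1 replicate 1 to 0.801 without P1 replicate 2. In rat, Ndrg1 was at −0.0375 on TPM, −0.00866 with median-of-ratios scaling and −0.632 without replicate 3 of both groups, and ranged from −0.582 to 0.368 with single libraries left out. Hif1a was at −0.0367, −0.00425 and −0.0815 in the same settings and ranged from −0.118 to 0.119. Vegfa and Egln1 were at −0.270 and −0.184 without replicate 3 of both groups, and ranged from −0.301 to 0.592 and from −0.0431 to 0.550 with single libraries left out, lowest without TSA replicate 3.

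Without the filter, 3 members were called from P1 to P7 and 0 from P3 to P7. In that setting 968 and 15 of 31008 genes were called, against 1245 and 496 of 13979 with the filter, and the fold changes of the members were as with it. Leaving out 1 library of a mouse group leaves 1 in it, and this changed which members were called in each mouse comparison. In rat, fits without 1 library called 0 to 1 members, beside 33 to 458 of 13625 tested genes. The rat replicate block and the fit without replicate 3 of both groups each called 1, beside 339 and 549 of those genes. With equal numbers of top peaks, P3 replicate 1 and P7 replicate 1 each had 6 members with a promoter peak. Same-numbered mouse libraries, with no stated pairing either, had correlations of −0.0964 to 0.171. The replicate block called 6, 7, 5, 5 and 5 members at P1, P3 and P7 against E18.5 and at P7 against P1 and P3. Of 13979 tested genes it called 2270, 3062, 3875, 1247 and 447 in the same order. The fall of Vegfa to P3 lost its call in 5 of 16 settings and the rise of Egln3 from P1 to P7 in 12 of 16. The rule for a call left out any change of under 1 on the log2 scale, in mouse and in rat, whatever its adjusted p value.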
